A study of Homo sapiens with 9 samples.

Results

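Gene expression in LNCaP cells was compared between 3 libraries collected at 0 h and 3 collected 12 h after addition of NRG1. Genes were included when they had at least 10 counts in 3 or more of these 6 libraries, which left 18816 of the 37351 genes in the table. LNCaP is a human cell line from a metastatic prostate carcinoma, and the cells had been starved in medium free of serum and calcium beforehand. The 12 h cells received 15 ng/mL recombinant NRG1, and the 3 libraries collected at 24 h entered the fit only to help estimate the spread. No library of cells kept for 12 h without NRG1 was analysed here, so NRG1 and 12 h in starvation medium cannot be told apart. All cells are of 1 line, and the replicates of a time are labelled as biological replicates of cells plated in triplicate wells, so p-values measure the spread between these wells.

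NRG1 (neuregulin 1) is a secreted ligand of the EGF family that binds the receptors HER3 (ERBB3) and HER4 (ERBB4), which pair with HER2 (ERBB2) to signal through the RAS, RAF, MEK and ERK kinases and through PI3K and AKT. ERK activity switches on immediate early genes such as FOS and EGR1, then the ETS factors ETV4 and ETV5 and the feedback inhibitors of the DUSP, Sprouty and SPRED families. In prostate luminal cells, androgen signalling maintains the differentiated state and the secretion of kallikreins.

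The 6 libraries held 48760003 to 60985825 counts, with the 0 h libraries the deeper ones, and 5.31% to 6.09% of counts lay in mitochondrially encoded genes. The common biological coefficient of variation was 4.06%, and no pair of replicates agreed within sampling noise. The prostate luminal markers were present, with a summed level over 12 genes of 5880 to 5940 CPM (counts per 1e6 counts of the scaled library) at 0 h and 5750 to 5790 CPM at 12 h. Markers of other cells were low. The summed level of 12 fibroblast and stromal genes was 32.6 to 36.7 CPM at 0 h and 31.6 to 33.3 CPM at 12 h, with FAP and COL1A2 at 3 or fewer counts over all 6 libraries. The 7 basal genes summed to 3.3 to 3.57 CPM and 2.67 to 3.9 CPM, with KRT5 at 3 or fewer counts, and the 7 immune and endothelial genes in the table to 13.1 to 13.9 CPM and 8.74 to 9.87 CPM, with CD3E and PECAM1 at 3 or fewer counts. Genes high in other prostate lines, such as CAV1 and AXL, summed to 8.0 to 8.37 CPM and 7.55 to 7.75 CPM.

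At 12 h the 6 largest rises in genes above a mean of 1 CPM were in ETV4, SPRY4, EGR1, ETV5, FOS and DUSP6, which are known to respond to ERK and were below 2 CPM in every 0 h library, while the falls were smaller and spread over transcription factors, ion channels, transporters and noncoding RNAs. A gene was called when its edgeR adjusted p was at most 0.05 and its fold change at least 1.5. Of the 18816 genes, 456 (2.42%) were called, 188 (0.999%) higher and 268 (1.42%) lower. Among the 188 higher genes, 83 changed by at least 2-fold and 21 by at least 4-fold, against 99 and 11 among the 268 lower genes. By adjusted p alone, 3661 genes (19.5%) passed, 2092 (11.1%) higher and 1569 (8.34%) lower, and the median log2 fold change of all tested genes was -0.0059. In 6286 genes (33.4%) the 3 libraries of one time lay entirely above those of the other, so a lack of overlap alone was common. Call rates also depended on level. Of protein-coding genes, 2.41% were called higher and 2.3% lower below 1 CPM, and 2.74% and 2.74% at 1 to 10 CPM. At 10 to 100 CPM the shares were 0.6% and 0.279%. Class shares below are set against all tested genes without matching for level, so a higher share was not tested as a trait of the class. In bulk RNA, fewer cells that express a gene and less RNA per cell cannot be told apart. Gene positions below are those of the table (GRCh38).

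**Figure D1:**
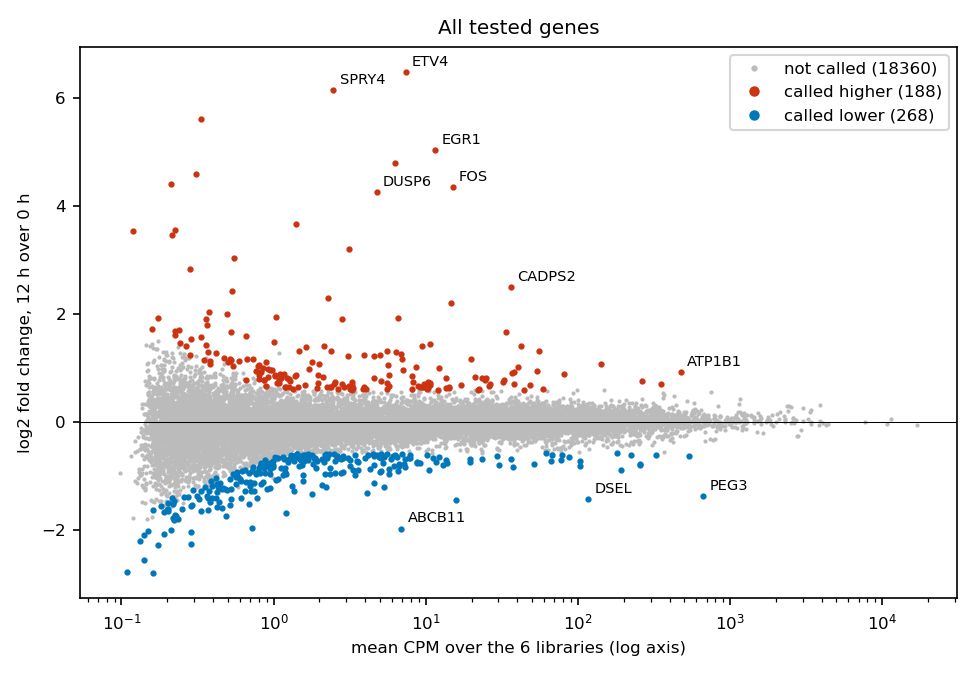
Log2 fold change of 12 h over 0 h against mean CPM over the 6 libraries (log axis), 1 point per tested gene, with the 188 genes called higher in red and the 268 called lower in blue. The rises reach further from 0 than the falls, up to 6.47 for ETV4, and most called genes lie at low levels.

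Transcription factors included the largest rise of all, in ETV4, and several smaller falls. Of 483 tested factors, leaving out numbered zinc finger genes, 16 were called higher and 11 lower, or 5.59% against 2.42% of all tested genes, with a median log2 fold change of -0.01. Of 494 numbered zinc finger genes, 1 was called higher and 2 lower (0.607%).

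The ETS factors ETV4 and ETV5, transcriptional activators downstream of ERK, led the list. ETV4 (ENSG00000175832.13, chromosome 17, 43527844 to 43579620) was at 0.258, 0.0344 and 0.188 CPM at 0 h and 14.8, 14.9 and 14.1 CPM at 12 h (6.47 ± 0.17 (SE) on the log2 scale, edgeR adjusted p = 3.42e-24). ETV5 was at 0.372, 0.619 and 0.325 CPM at 0 h and 11.7, 13.4 and 11.2 CPM at 12 h (4.78 ± 0.14 (SE) on the log2 scale, edgeR adjusted p = 1.18e-24). Both were below 1 CPM in every 0 h library and above 11 CPM in every 12 h library. No other ETS factor of the 22 tested was called, where 2.42% of all tested genes were. ETS2 (0.46) and ETV1 (0.30), an abundant ETS factor in these cells, passed the adjusted p but not the fold threshold. ETV4 overlaps DHX8 on the other strand, which had more counts and a log2 fold change of 0.14.

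The zinc finger factors EGR1 and EGR2, immediate early genes of growth factor signalling, made up 2 of the 3 tested EGR genes and both rose. Over all tested genes 0.999% were called higher. EGR1 (ENSG00000120738.8, chromosome 5, 138465479 to 138469303) was at 0.598, 0.826 and 0.6496 CPM at 0 h and 23.2, 22.7 and 21.5 CPM at 12 h (5.02 ± 0.10 (SE) on the log2 scale, edgeR adjusted p = 6.41e-30). EGR2 was found in 1 of the 3 libraries at 0 h, with 4 counts in all, and in each 12 h library, at 0.759, 0.626 and 0.392 CPM.

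Of 17 AP-1 and small MAF factors, 4 were called higher and 1 lower, against 0.999% and 1.42% over all tested genes. FOS, which pairs with JUN proteins to form AP-1, was at 1.62, 1.14 and 1.47 CPM at 0 h and 29.8, 27.9 and 28.2 CPM at 12 h (4.34 ± 0.09 (SE) on the log2 scale, edgeR adjusted p = 6.41e-30). FOSL1, a FOS relative, was at 0.258, 0.0688 and 0.171 CPM at 0 h and 0.852, 1.06 and 0.784 CPM at 12 h, and MAFF, a small MAF protein, at 5.57, 5.64 and 4.496 CPM at 0 h and 24.2, 24.1 and 23.8 CPM at 12 h. The groups did not overlap for any of these. JUNB rose less, from 15.2 ± 0.656 to 26.8 ± 0.459 CPM (log2 fold change 0.82), whereas JUN itself was lower by adjusted p (-0.44) without reaching the fold threshold. MAFF overlaps PLA2G6 and JUNB overlaps HOOK2, and these neighbours had log2 fold changes of -0.14 and -0.22.

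**Figure D2:**
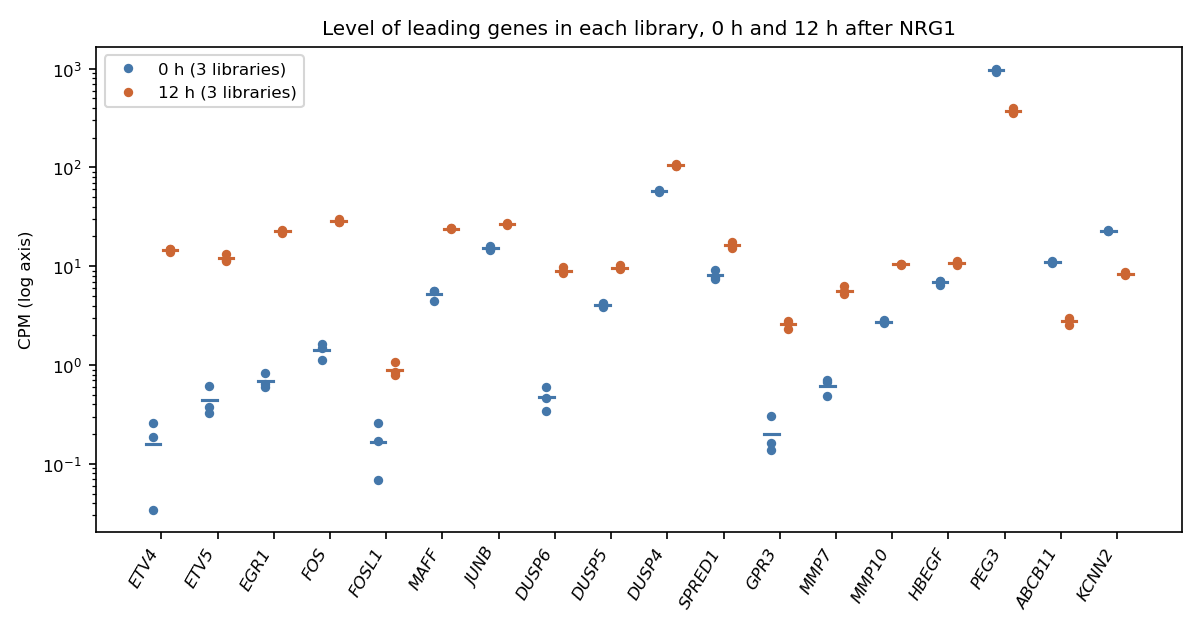
CPM (log axis) of 18 leading genes in each of the 3 libraries at 0 h (blue) and at 12 h (orange), with the mean of each time as a bar. The 2 times are separate for every gene shown, with ETV4 near 0.160 CPM at 0 h and 14.6 CPM at 12 h, and PEG3, ABCB11 and KCNN2 lower at 12 h.

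Promoters of 5 rising genes are shown because each holds a motif linked to growth factor or cyclic AMP signalling: the CArG box, to which the serum response factor binds, the AP-1 motif (TGANTCA with C or G at N), and the cyclic AMP response element CRE (TGACGTCA). Sequences are from RefSeq (GRCh38.p14), run 5′ to 3′ on the gene's strand from 250 bases before to 50 bases after the start, and have these motifs and the TATA box (TATAAA, or TTTATA where it lies on the other strand) in capitals. The EGR1 promoter is chr5:138465229-138465528 on the forward strand, GPR3 chr1:27392372-27392671 on the forward strand, MMP7 chr11:102530698-102530997 on the reverse strand, MAFF chr22:38201744-38202043 on the forward strand and VGF chr7:101165520-101165819 on the reverse strand.
EGR1: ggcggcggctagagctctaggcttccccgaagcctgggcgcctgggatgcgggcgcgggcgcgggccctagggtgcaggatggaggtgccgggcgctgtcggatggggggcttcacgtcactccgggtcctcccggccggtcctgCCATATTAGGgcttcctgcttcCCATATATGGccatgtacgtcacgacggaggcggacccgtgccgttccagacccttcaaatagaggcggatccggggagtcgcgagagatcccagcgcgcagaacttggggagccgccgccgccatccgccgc
GPR3: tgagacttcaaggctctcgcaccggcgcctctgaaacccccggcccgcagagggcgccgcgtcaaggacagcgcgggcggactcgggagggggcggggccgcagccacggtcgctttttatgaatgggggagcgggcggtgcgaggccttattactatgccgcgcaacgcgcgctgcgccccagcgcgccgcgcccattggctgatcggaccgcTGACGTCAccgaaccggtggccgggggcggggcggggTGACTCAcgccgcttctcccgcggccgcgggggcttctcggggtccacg
MMP7: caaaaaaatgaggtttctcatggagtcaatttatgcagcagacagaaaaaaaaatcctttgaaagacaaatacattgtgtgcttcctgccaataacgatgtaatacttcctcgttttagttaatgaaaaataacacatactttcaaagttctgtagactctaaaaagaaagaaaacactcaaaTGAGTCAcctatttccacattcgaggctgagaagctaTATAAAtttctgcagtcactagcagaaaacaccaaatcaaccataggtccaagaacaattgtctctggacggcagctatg
MAFF: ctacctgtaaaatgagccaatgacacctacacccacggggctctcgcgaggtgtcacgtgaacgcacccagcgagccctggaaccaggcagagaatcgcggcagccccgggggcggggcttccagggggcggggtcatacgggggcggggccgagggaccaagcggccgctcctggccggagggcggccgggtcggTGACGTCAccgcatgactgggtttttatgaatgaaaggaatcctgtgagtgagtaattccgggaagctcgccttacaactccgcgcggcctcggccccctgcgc
VGF: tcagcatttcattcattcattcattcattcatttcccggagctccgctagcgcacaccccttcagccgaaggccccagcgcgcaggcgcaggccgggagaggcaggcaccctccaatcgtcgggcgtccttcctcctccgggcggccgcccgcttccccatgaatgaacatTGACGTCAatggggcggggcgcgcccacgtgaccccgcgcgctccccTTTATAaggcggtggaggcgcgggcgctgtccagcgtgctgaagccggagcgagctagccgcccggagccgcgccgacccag

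The EGR1 promoter held 2 CArG boxes, the GPR3 promoter a CRE and an AP-1 motif, the MMP7 promoter an AP-1 motif and a TATA box, the MAFF promoter a CRE, and the VGF promoter a CRE and a TATA box on the other strand. Promoters of FOS, SPRY4, DUSP6, MMP10, TIMP1 and EGR2, which also rose, were searched too. From 250 bases before to 50 bases after the start they held no match to the CArG box, AP-1 motif or CRE patterns and are not shown. Sites further away and variants of a motif were not sought, so these genes may still have such elements. Searched on both strands, the AP-1 motif was in 8.2% of the 122 promoters found for protein-coding genes called higher, 7.27% of the 110 for those called lower, 3% of the 10893 for tested protein-coding genes and 4.92% of all 27305 in the table. The CArG box was in 3.28%, 1.82%, 1.03% and 1.29%, and the CRE in 2.46%, 2.73%, 3.1% and 1.98%, in the same order. The ETS motif CCGGAAGT was in 0.82%, 0%, 8.47% and 4.44%, and the TATA box in 13.9%, 16.4%, 6% and 12%. A match is a description and not a bound site.

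Among 36 tested nuclear receptors, the changes included a rise of the vitamin D receptor VDR and a fall of the retinoic acid receptor RARB. VDR was at 16.9, 17.9 and 17.6 CPM at 0 h and 27.4, 25.5 and 26.2 CPM at 12 h (0.60 ± 0.06 (SE) on the log2 scale, edgeR adjusted p = 2.34e-10). The VDR groups did not overlap, and its level at 12 h was higher in each library than in any library at 0 h. RARB was a low-level gene, from 1.94 ± 0.219 to 1.26 ± 0.07502 CPM (edgeR adjusted p = 0.0276). Calls that did not hold, with the log2 fold change then, were VDR when 0 h replicate 1 or 12 h replicate 1 was left out (0.57) and RARB when 0 h replicate 1 or 3 or 12 h replicate 1 or 2 was left out (-0.65 to -0.53).

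Among 95 tested homeobox genes, the changes included falls of NKX3-2 (-0.65) and HOXC4 (-0.64) and a rise of ISX (0.73). HOXC4 shares its span with HOXC6, which had more counts and a log2 fold change of -0.27. Other factors that fell were SOX11 (-0.65), TOX3 (-0.69), the forkhead gene FOXN4 (-0.68), the zinc finger gene ZBTB43 (-0.61) and TFAP2E (-0.68), whose groups overlapped and whose antisense gene fell with it. Among these, calls that did not hold, with the log2 fold change then, were NKX3-2 when 0 h replicate 2 or 3 or 12 h replicate 1 or 2 was left out (-0.61 to -0.57), FOXN4 when 12 h replicate 1 was left out (-0.58), ZBTB43 when 12 h replicate 1 was left out (-0.58) and TFAP2E when 0 h replicate 1 or 12 h replicate 1 or 2 was left out (-0.65 to -0.35).

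Among the remaining factors, the Notch target HES1, the repressor BHLHE41 and the differentiation inhibitor ID1 rose. They were 3 of 59 basic helix-loop-helix genes, against 0.999% called higher over all tested genes. HES1 was at 1.23, 1.26 and 1.04 CPM at 0 h and 3.296, 3.13 and 2.85 CPM at 12 h (1.39 ± 0.16 (SE) on the log2 scale, edgeR adjusted p = 2.77e-08). RUNX2, a bone and invasion factor, rose from 2.52 ± 0.231 to 4.02 ± 0.367 CPM (log2 fold change 0.67) and TEAD4, a partner of YAP, from 11.04 ± 0.853 to 17.2 ± 0.328 CPM (0.64). RUNX1 was near the detection limit, at 0.2100, 0.155 and 0.137 CPM at 0 h and 0.296, 0.341 and 0.557 CPM at 12 h, and its edgeR adjusted p of 0.0472 was above 0.05 in 11 alternatives beside those with a stricter fold. The calls that single libraries decided, with the log2 fold change then, were RUNX1 when 0 h replicate 1, 2 or 3 or 12 h replicate 2 or 3 was left out (0.92 to 1.43), BHLHE41 when 0 h replicate 1 was left out (0.75), ID1 when 0 h replicate 3 was left out (0.64) and TEAD4 when 0 h replicate 1 was left out (0.58). None of the 21 KLF and SP factors, 29 ATF, CREB and C/EBP factors, 32 SMAD, STAT, IRF, NF-kB and NFAT factors or 15 E2F, p53 and MYB factors was called. With 2.42% of all tested genes called, no call in a class this small is near that share. KLF5 was higher by adjusted p alone (0.56).

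Androgen-responsive genes were lower more often than higher but did not move as 1 block. Of 40 tested, 17 were lower and 7 higher by adjusted p, against 8.34% and 11.1% over all tested genes. By both thresholds 3 were called lower and 1 higher, against 1.42% and 0.999% over all tested genes. The called ones included C1orf116 (-0.71), which was lower, and UAP1, an enzyme of hexosamine synthesis, which was higher (0.69). KLK3, which encodes prostate-specific antigen, was at 974, 995 and 1011 CPM at 0 h and 1308, 1346 and 1330.2 CPM at 12 h, a log2 fold change of 0.42. KLK2 (0.11) and KRT8 (0.24) were also higher by adjusted p, and SLC45A3 (-0.41) and FOLH1 (-0.20) lower. Of the 12 luminal markers, 3 were higher and 6 lower by adjusted p.

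Several feedback inhibitors of ERK signalling rose. MAP kinase phosphatases inactivate ERK and related kinases. Of 20 tested genes in that class, 4 were called higher and none lower. The class was drawn by gene symbol and may hold phosphatases that do not act on these kinases. The shares over all tested genes were 0.999% and 1.42%. DUSP6, specific for ERK (ENSG00000139318.8, chromosome 12, 89347235 to 89352501), was at 0.468, 0.602 and 0.342 CPM at 0 h and 8.46, 9.71 and 8.87 CPM at 12 h (4.25 ± 0.14 (SE) on the log2 scale, edgeR adjusted p = 4.32e-23). DUSP5 (1.25), DUSP4 (0.88) and DUSP2 (0.73) rose from higher starting levels, and DUSP1 was lower by adjusted p (-0.19).

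SPRY4, a Sprouty inhibitor of RAS activation, was at 0.0969, 0.103 and 0 CPM at 0 h and 5.11, 5.04 and 4.44 CPM at 12 h (6.13 ± 0.27 (SE) on the log2 scale, edgeR adjusted p = 1.01e-18). SPRED1 rose from 8.14 ± 0.816 to 16.3 ± 1.09 CPM (1.00) and SPRED2 from 18.2 ± 1.51 to 31.8 ± 2.34 CPM (0.81). SPRY1 (0.30), SPRY2 (0.48) and ERRFI1 (0.38), an inhibitor of EGF receptors, passed the adjusted p alone. PHLDA2, a pleckstrin-homology protein, was at 16.01, 16.9 and 15.8 CPM at 0 h and 53.4, 50.6 and 49.5 CPM at 12 h (1.65 ± 0.05 (SE) on the log2 scale, edgeR adjusted p = 1.18e-24), and the phosphatase PTPN21 fell (-0.75). In this class of 61 genes, 4 were called higher and 1 lower, against 0.999% and 1.42% over all tested genes.

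Over all 580 signalling regulators, 19 were called higher and 7 lower (4.48% against 2.42% of all tested genes), with a median of -0.01. The polo-like kinases PLK3, from 5.72 ± 0.319 to 15.5 ± 0.545 CPM (1.44), and PLK2, from 26.6 ± 1.02 to 53.5 ± 0.846 CPM (1.00), rose, as did the adaptors SHC4 (1.37) and SHC3 (0.78), MAP3K5 (0.71) and MAPK4 (0.64). SHC4 overlaps EID1, which had far more counts and a log2 fold change of -0.01. The G-protein regulators RGS2 (0.67), RGS16 (0.64) and RGS17 (0.61), the G-protein subunit GNAI1 (0.68) and the GTPase-activating protein ARHGAP22 (0.86) also rose. The falls were the stress kinase activator MAP2K6 (-0.74), MAPK10 (-0.99), the receptor adaptor GRB10 (-0.62), the calcium kinase CAMK4 (-1.43), ARHGEF10 (-0.75) and SESN3. SESN3, a sestrin that restrains mTORC1 and a FOXO target, was at 341, 311 and 318 CPM at 0 h and 193, 175 and 196 CPM at 12 h (-0.78 ± 0.04 (SE) on the log2 scale, edgeR adjusted p = 3.8e-16). Of 54 genes of the PI3K, AKT and mTOR pathway, it was the only one called, which is near the share of 2.42% over all tested genes. MAPK10 overlaps PTPN13, which had far more counts and a log2 fold change of -0.13. Calls in this group that single libraries decided, with the log2 fold change then, were RGS16 when 0 h replicate 1 or 12 h replicate 1 was left out (0.53 to 0.55), RGS17 when 0 h replicate 2 or 3 or 12 h replicate 3 was left out (0.52 to 0.55), ARHGAP22 when 0 h replicate 2 or 3 or 12 h replicate 2 or 3 was left out (0.65 to 0.84), SHC3 when 0 h replicate 1 or 12 h replicate 1 was left out (0.72 to 0.74), MAPK4 when 0 h replicate 2 or 12 h replicate 3 was left out (0.51 to 0.53), CAMK4 when 0 h replicate 1 or 12 h replicate 1 or 2 was left out (-1.33 to -1.07) and ARHGEF10 when 0 h replicate 1 was left out (-0.53).

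None of the 40 tested receptor tyrosine kinases was called, including the receptors of NRG1. In a class of this size that is near the share of 2.42% over all tested genes. ERBB3 was at 203, 200.4 and 211 CPM at 0 h and 218, 213 and 218 CPM at 12 h, and ERBB2 at 241, 255 and 246 CPM at 0 h and 223, 229 and 226 CPM at 12 h. ERBB2 was lower by adjusted p (-0.13 ± 0.03 (SE) on the log2 scale, edgeR adjusted p = 0.00519), and ERBB3 did not pass (0.08 ± 0.03 (SE) on the log2 scale, edgeR adjusted p = 0.101). EGFR (0.14) and ERBB4 (-0.38), the latter at 0.468, 0.499 and 0.427 CPM at 0 h, did not pass either. By adjusted p alone EPHA2 (0.54) and IGF1R (0.38) were higher and EPHA3 (-0.44) was lower.

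Of all 319 tested receptors, 11 were called higher and 5 lower (5.02% against 2.42% of all tested genes), with a median of -0.01. G-protein-coupled receptors gave 8 of the rises and 2 of the falls among 134, against 0.999% and 1.42% over all tested genes. GPR3, a receptor that raises cyclic AMP without needing a ligand (ENSG00000181773.7, chromosome 1, 27392622 to 27395814), was at 0.162, 0.138 and 0.308 CPM at 0 h and 2.78, 2.29 and 2.68 CPM at 12 h (3.66 ± 0.26 (SE) on the log2 scale, edgeR adjusted p = 3.58e-13). PTGER4, a prostaglandin E2 receptor, was at 1.26, 1.22 and 1.64 CPM at 0 h and 3.203, 3.72 and 3.302 CPM at 12 h (1.31 ± 0.16 (SE) on the log2 scale, edgeR adjusted p = 6.17e-08), and overlaps TTC33, whose log2 fold change was -0.09. The chemokine receptor CXCR4 rose from a low level, at 0.178, 0.0688 and 0.205 CPM at 0 h and 0.555, 0.493 and 0.6604 CPM at 12 h (1.90 ± 0.40 (SE) on the log2 scale, edgeR adjusted p = 0.000578).

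Other rises included the bombesin receptor GRPR (0.97), the muscarinic receptor CHRM3 (0.96), the opioid receptor OPRD1 (1.10) and the WNT receptor FZD4 (0.66). GRPR and OPRD1 each overlap an antisense gene with a positive log2 fold change of its own, 1.07 and 1.19. The opioid receptor OPRK1 fell, at 8.16, 7.35 and 6.91 CPM at 0 h and 3.26, 3.19 and 3.26 CPM at 12 h, with the dopamine receptor DRD4 (-0.80) (edgeR adjusted p = 0.036). TNFRSF12A, the receptor of TWEAK, was at 12.2, 13.2 and 11.6 CPM at 0 h and 27.8, 26.4 and 28.1 CPM at 12 h (1.15 ± 0.06 (SE) on the log2 scale, edgeR adjusted p = 5.6e-18), and the interleukin 4 receptor IL4R rose less (0.64). The lipoprotein receptor LRP8 rose (0.70) and LRP1 fell (-0.59), the latter with an edgeR adjusted p of 0.0251 that was 0.0773 when only the 6 libraries were fitted. The receptor phosphatases PTPRR (-0.92) and PTPRB (-0.84) fell. Receptor calls that did not hold, with the log2 fold change then, were DRD4 when 0 h replicate 1 or 2 or 12 h replicate 1 or 3 was left out (-0.85 to -0.58), IL4R when 0 h replicate 2 or 12 h replicate 2 was left out (0.48 to 0.56), LRP1 when 0 h replicate 1 or 2 or 12 h replicate 1 or 2 was left out (-0.62 to -0.48) and PTPRB when 0 h replicate 1 or 3 or 12 h replicate 1 or 3 was left out (-0.82 to -0.74). None of the 14 TGF-beta superfamily receptors and 20 integrins was called, which in classes this small is near the share of 2.42% over all tested genes.

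**Figure D3:**
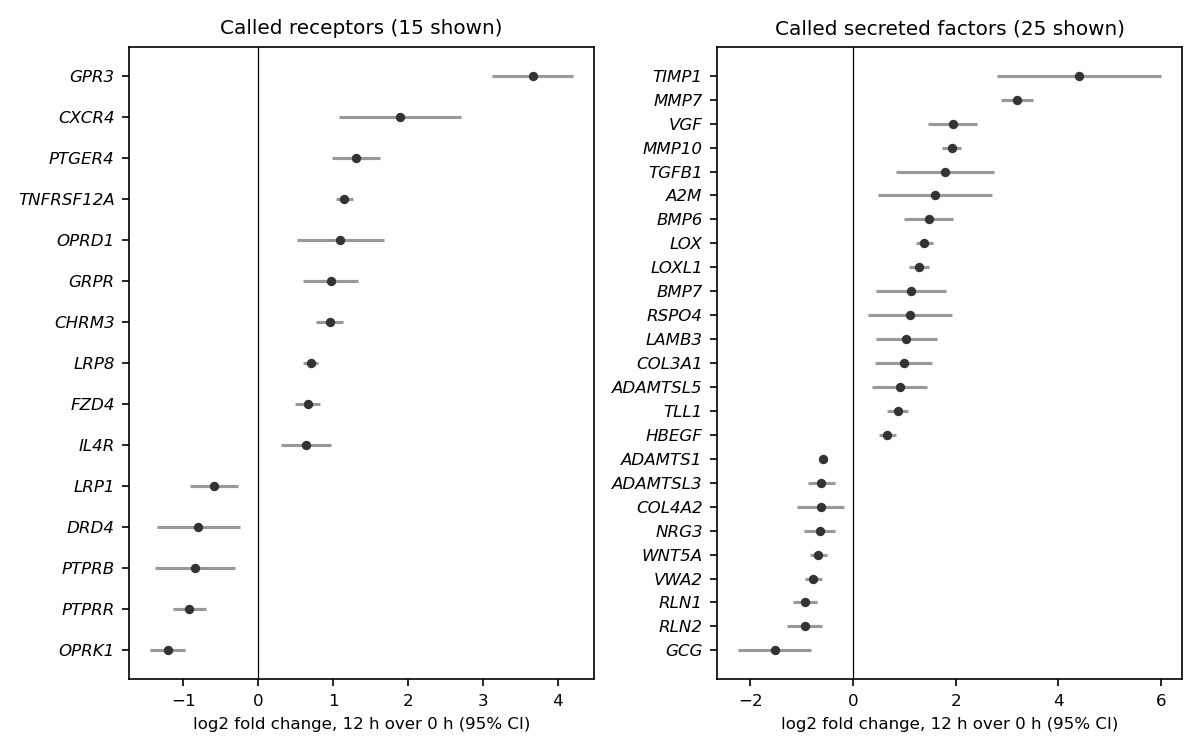
Log2 fold change of 12 h over 0 h with its 95% confidence interval for 15 of the 16 called receptors (left) and 25 called secreted factors (right). GPR3 has the highest value on the left, and on the right TIMP1 and MMP7 lie furthest above 0, of which TIMP1, with 3 counts at 0 h, has the widest interval.

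Secreted factors were called more often than any of the other 4 functional groups, 16 higher and 9 lower of 292 (8.56%), with a median of -0.04. The share over all tested genes was 2.42%, and this order was not tested. Ligands of the EGF family divided. HBEGF, which binds EGFR and ERBB4, was at 7.04, 6.503 and 7.01 CPM at 0 h and 10.3, 11.1 and 11.2 CPM at 12 h (0.67 ± 0.08 (SE) on the log2 scale, edgeR adjusted p = 8.88e-08). NRG3, a ligand of ERBB4, was at 3.295, 3.11 and 3.28 CPM at 0 h and 2.24, 2.18 and 1.73 CPM at 12 h (-0.65 ± 0.15 (SE) on the log2 scale, edgeR adjusted p = 0.0014). NRG3 was no longer called when 12 h replicate 3 was left out (-0.55). TGFA (0.16), EGF (-0.05), BTC (0.05) and NRG4 (-0.21) did not pass. The NRG1 gene had 0 counts in all 6 libraries, of 334122925 in total, which allows up to 0.00898 CPM. AREG with 19 counts, NRG2 with 13 and EPGN with 1 were under the filter.

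Of 31 TGF-beta, BMP and WNT ligands, 4 were called higher and 1 lower, against 0.999% and 1.42% over all tested genes. The bone morphogenetic proteins BMP6 and BMP7 rose, BMP6 at 0.468, 0.602 and 0.513 CPM at 0 h and 1.46, 1.52 and 1.42 CPM at 12 h (1.47 ± 0.24 (SE) on the log2 scale, edgeR adjusted p = 1.25e-05) and BMP7 with a log2 fold change of 1.13 and an edgeR adjusted p of 0.015. TGFB1 was at 0.226, 0.0688 and 0.188 CPM at 0 h and 0.611, 0.512 and 0.578 CPM at 12 h, 1.79 on the log2 scale. TGFB1 and BMP6 lie within or beside genes with many more counts, HNRNPUL1 and TXNDC5, whose log2 fold changes were 0.00 and -0.19. The WNT agonist RSPO4 passed by a narrow margin (edgeR adjusted p = 0.0492), with overlapping groups, and had an adjusted p of 0.0512 with DESeq2. Ligand calls that did not hold, with the log2 fold change then, were BMP7 when 0 h replicate 2 or 12 h replicate 1 or 2 was left out (0.89 to 1.08) and RSPO4 when 0 h replicate 1, 2 or 3 or 12 h replicate 1 or 3 was left out (0.90 to 1.28). WNT5A, a noncanonical WNT, was at 14.6, 13.5 and 13.3 CPM at 0 h and 7.74, 9.05 and 9.101 CPM at 12 h (-0.68 ± 0.08 (SE) on the log2 scale, edgeR adjusted p = 4.99e-08).

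Several secreted proteases rose. MMP7 (matrilysin; ENSG00000137673.9, chromosome 11, 102520508 to 102530750) was at 0.485, 0.671 and 0.701 CPM at 0 h and 6.24, 5.59 and 5.18 CPM at 12 h (3.20 ± 0.15 (SE) on the log2 scale, edgeR adjusted p = 2.04e-18). MMP10 (stromelysin 2) was at 2.76, 2.67 and 2.84 CPM at 0 h and 10.3, 10.5 and 10.6 CPM at 12 h (1.92 ± 0.09 (SE) on the log2 scale, edgeR adjusted p = 2.69e-18). The protease TLL1 (0.87) and the ADAMTS-like gene ADAMTSL5 (0.91) rose too, while ADAMTS1 (-0.59) and the ADAMTS-like gene ADAMTSL3 (-0.62) fell. Of 79 secreted proteases and inhibitors together, 6 were called higher, the inhibitors TIMP1 and A2M among them, and 2 lower. The shares over all tested genes were 0.999% higher and 1.42% lower. Protease and inhibitor calls that did not hold, with the log2 fold change then, were ADAMTS1 when 0 h replicate 1 or 12 h replicate 1 or 2 was left out (-0.57 to -0.53), ADAMTSL5 when 0 h replicate 3 or 12 h replicate 1 or 3 was left out (0.83 to 0.88), ADAMTSL3 when 0 h replicate 1 or 12 h replicate 2 was left out (-0.52) and A2M when 0 h replicate 2 or 3 or 12 h replicate 2 or 3 was left out (1.07 to 1.66). The protease inhibitor TIMP1 had 3 counts at 0 h and 62 at 12 h, a ratio of 23.8 with a 95% counting interval of 7.77 to 118. The inhibitor A2M (1.60) was called with overlapping groups, and it overlaps A2M-AS1, which had more counts and a log2 fold change of -0.21.

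In the extracellular matrix class 4 of 98 genes were called higher and 2 lower, against 0.999% and 1.42% over all tested genes, and 7 were higher and 12 lower by adjusted p alone. LOX and LOXL1, enzymes that crosslink collagen and elastin, were at 5.31, 4.95 and 5.27 CPM at 0 h and 13.2, 13.6 and 14.1 CPM at 12 h and at 4.01, 3.41 and 3.57 CPM at 0 h and 9.26, 8.799 and 8.89 CPM at 12 h. LOX overlaps SRFBP1 (0.24), and LOXL1 overlaps its antisense gene LOXL1-AS1, which was also called higher (0.64). LAMB3 (1.03) and COL3A1 (0.99) rose from under 1 CPM, and VWA2 (-0.77) and COL4A2 (-0.63) fell. COL3A1 is also a stromal marker, but its change is too small to show in the summed stromal level given above. That sum therefore does not bear on the rise of COL3A1. Matrix calls that did not hold, with the log2 fold change then, were LAMB3 when 0 h replicate 2 was left out (0.84), COL3A1 when 0 h replicate 2 was left out (0.68) and COL4A2 when 0 h replicate 2 or 3 or 12 h replicate 2 or 3 was left out (-0.69 to -0.46).

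Of 27 peptide hormones, 3 were called lower and 1 higher, against 1.42% and 0.999% over all tested genes. VGF, a neurotrophin-inducible secretory peptide, was at 0.436, 0.499 and 0.342 CPM at 0 h and 1.74, 1.73 and 1.47 CPM at 12 h (1.95 ± 0.23 (SE) on the log2 scale, edgeR adjusted p = 6.97e-08). RLN1 and RLN2, the neighbouring relaxin genes, were at 6.801, 6.76 and 6.09 CPM at 0 h and 3.31, 3.53 and 3.47 CPM at 12 h and at 3.295, 3.42 and 3.299 CPM at 0 h and 1.35, 2.18 and 1.67 CPM at 12 h. They are similar in sequence and reads shared between them are uncertain. GCG, the glucagon precursor, was lower (-1.52). None of the 27 FGF, VEGF, PDGF and HGF ligands and 25 cytokines and chemokines was called. For classes this small that is near the 2.42% called over all tested genes.

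Of 489 channels and transporters, 15 were called lower and 7 higher (4.5%), whereas by adjusted p alone 55 were lower and 82 higher, with a median log2 fold change of -0.0038. Over all tested genes 1.42% were called lower and 0.999% higher (2.42% together). By adjusted p alone these shares were 8.34% and 11.1%. ABCB11, a bile salt export pump, (ENSG00000073734.10, chromosome 2, 168915498 to 169031324) was at 11.1, 10.7 and 11.2 CPM at 0 h and 3.02, 2.83 and 2.52 CPM at 12 h (-1.98 ± 0.12 (SE) on the log2 scale, edgeR adjusted p = 2.04e-15). KCNN2, a calcium-activated potassium channel, was at 22.5, 23.4 and 22.9 CPM at 0 h and 8.68, 8.14 and 8.399 CPM at 12 h (-1.45 ± 0.07 (SE) on the log2 scale, edgeR adjusted p = 3.46e-18). The kainate receptors GRIK1 (-1.97) and GRIK2 (-0.81) were both lower, 2 of 37 ligand-gated channels, although GRIK1 overlaps BACH1, which had more counts. The sodium channel subunits SCNN1G (-0.80) and SCNN1B (-0.59) fell as well.

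Members of the SLC30 family of metal transporters moved in both directions. SLC30A4, a vesicular zinc transporter, was at 264, 240.1 and 249 CPM at 0 h and 135, 135 and 133 CPM at 12 h (-0.90 ± 0.04 (SE) on the log2 scale, edgeR adjusted p = 2.5e-17). SLC30A10 (-0.96) fell and SLC30A1, a plasma membrane zinc exporter, rose, at 21.4, 16.3 and 15.98 CPM at 0 h and 28.6, 30.7 and 33.1 CPM at 12 h (0.78 ± 0.12 (SE) on the log2 scale, edgeR adjusted p = 0.00312). ATP1B1, the beta subunit of the sodium pump, was at 336, 323 and 320.3 CPM at 0 h and 613, 623 and 621 CPM at 12 h (0.92 ± 0.03 (SE) on the log2 scale, edgeR adjusted p = 2.24e-23). The smaller rises were KCNJ9 (0.88), SCN4B (0.96), SLC25A18 (1.16), SLC16A10 (0.63) and ATP8B3 (0.62). The cholesterol exporter ABCA1 (-0.80), ABCA12 (-0.59), SLC22A3 (-0.62), SLC13A4 (-0.81), SLC45A2 (-1.31), SLC35G6 (-1.64) and ATP4B (-0.75) fell. SLC35G6 overlaps ZBTB4 (-0.12) and SLC13A4 overlaps STMP1 (-0.07), both with far more counts. SLC35G6 also has a near-identical copy in SLC35G5. Channel and transporter calls that did not hold, with the log2 fold change then, were SCNN1B when 0 h replicate 2 or 12 h replicate 1 or 3 was left out (-0.58 to -0.48), KCNJ9 when 12 h replicate 1 was left out (0.71), SCN4B when 12 h replicate 3 was left out (0.78) and SLC16A10 when 0 h replicate 3 or 12 h replicate 1 was left out (0.56 to 0.58). Further calls of this kind, with the log2 fold change then, were ATP8B3 when 0 h replicate 2 or 3 or 12 h replicate 1 or 2 was left out (0.43 to 0.63), ABCA12 when 0 h replicate 3 or 12 h replicate 2 was left out (-0.53 to -0.47), SLC13A4 when 0 h replicate 1 or 12 h replicate 1 or 2 was left out (-0.82 to -0.64), SLC45A2 when 0 h replicate 1 or 12 h replicate 2 or 3 was left out (-1.21 to -0.78), SLC35G6 when 0 h replicate 3 or 12 h replicate 1 or 3 was left out (-1.67 to -1.31) and ATP4B when 0 h replicate 1 or 2 or 12 h replicate 1 or 2 was left out (-0.88 to -0.43).

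**Figure D4:**
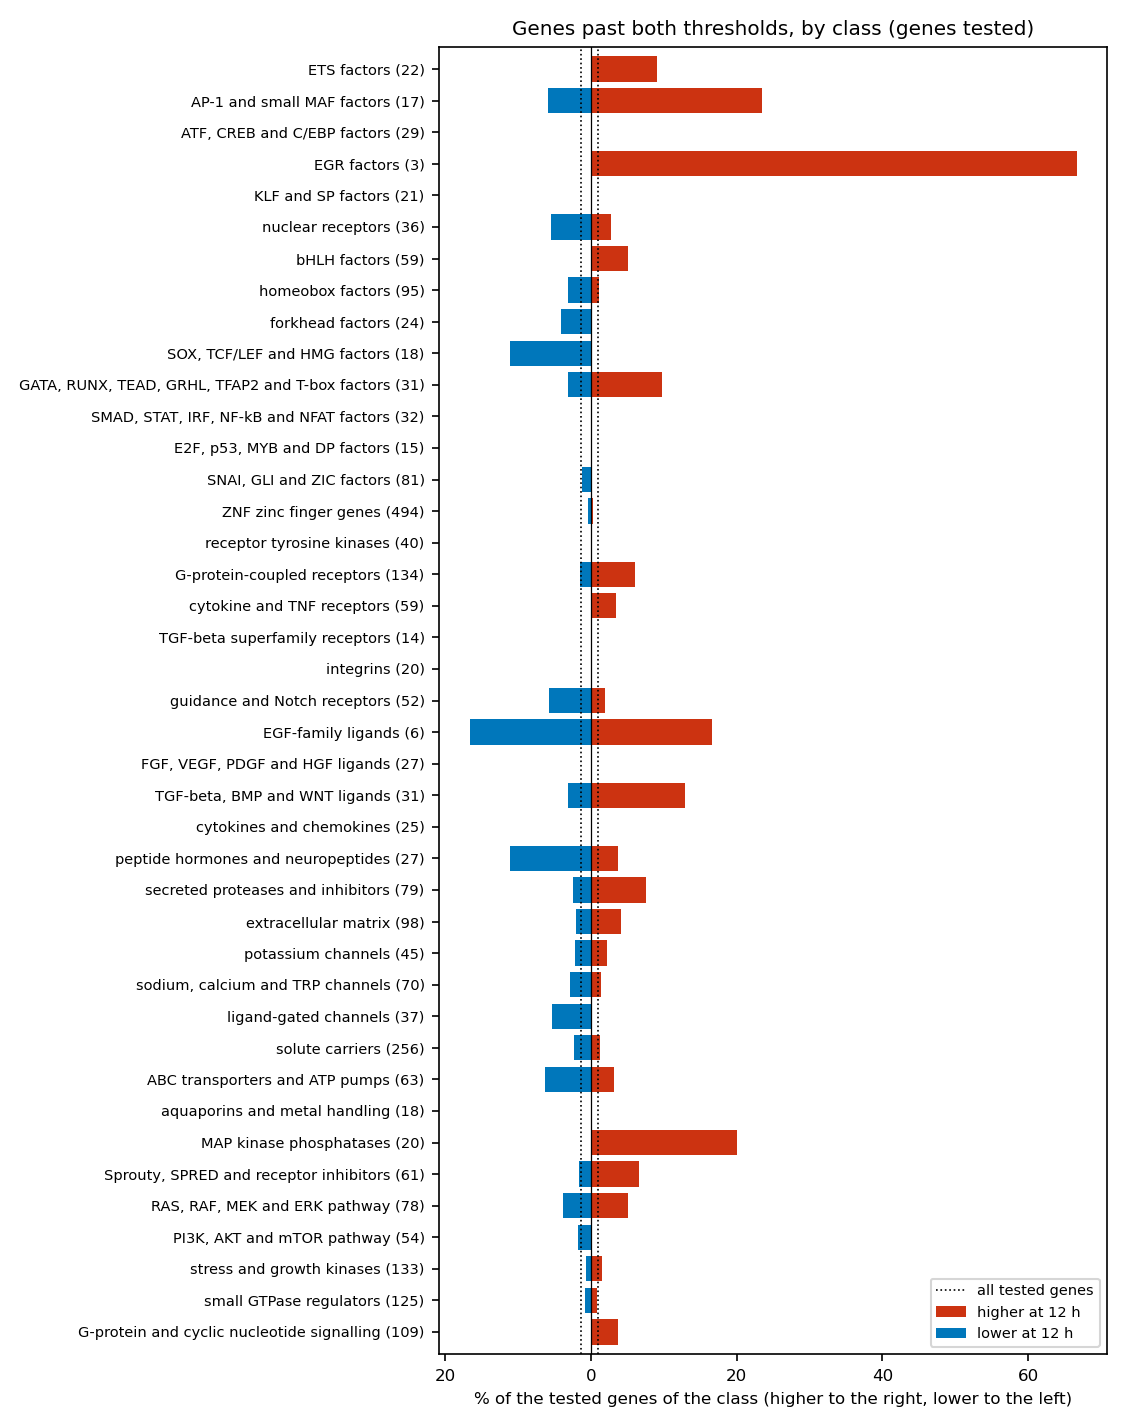
Share of the tested genes of each class that passed both thresholds, in %, with genes higher at 12 h to the right and lower to the left, and the number tested in parentheses. Dotted lines give the share over all tested genes, 0.999% higher and 1.42% lower. EGR, AP-1 and MAP kinase phosphatase genes extend furthest to the right.

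Processes of growth and metabolism moved by small amounts, mostly below the fold threshold. Of 94 ribosome biogenesis genes, 64 were higher and 1 lower by adjusted p, with a median log2 fold change of 0.17, against 11.1% higher over all tested genes. UTP23 (0.43) and NOP16 (0.39), nucleolar assembly proteins, were the highest. Glycolysis and hypoxia genes were higher in 25 of 38 and lower in none, median 0.18, with ENO1 (0.31), LDHA (0.26) and CA12 (0.47). Sterol synthesis genes were higher in 15 of 25 and lower in 1, median 0.18. HMGCS1, an early enzyme of the pathway, was at 607, 603 and 603 CPM at 0 h and 855, 907 and 903 CPM at 12 h (log2 fold change 0.56), and SQLE was higher by adjusted p (0.40). MYC, a regulator of cell growth, was at 292, 303 and 291 CPM at 0 h and 424, 427 and 431 CPM at 12 h, with a log2 fold change of 0.53 under the fold threshold.

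Of 61 DNA replication genes, 22 were higher and 1 lower by adjusted p, median 0.14, with MCM6 (0.46) and the licensing inhibitor GMNN, the only one called, from 19.98 ± 0.313 to 31.8 ± 1.11 CPM. Mitosis genes were higher in 13 of 71, median 0.09. Replication-dependent histone genes were lower in 8 of 39 and higher in none, median -0.19. Cytoplasmic ribosomal protein genes were higher in 6 and lower in 1 of 87, median 0.01. The shares by adjusted p over all tested genes were 11.1% higher and 8.34% lower. In either direction, 8.05% of the ribosomal protein genes passed, against 19.5% of all tested genes.

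Of 28 targets of FOXO factors, 9 were lower and 4 higher by adjusted p, against 8.34% lower and 11.1% higher over all tested genes, and the lower ones included SESN3, SESN1 (-0.51) and FOXO3 itself (-0.27). CITED2, a transcriptional coregulator, was at 132, 136 and 126 CPM at 0 h and 74.6, 75.1 and 74.7 CPM at 12 h (-0.81 ± 0.04 (SE) on the log2 scale, edgeR adjusted p = 1.08e-18). In the BCL2 family, the survival gene BCL2 (0.65) and the death activator HRK (0.65) were called higher, 2 of 18 against 0.999% of all tested genes. MCL1 (0.32) and BIK (0.57) were higher by adjusted p alone. HRK was no longer called when 0 h replicate 1 or 12 h replicate 1 was left out (0.55 to 0.58). A further list of 48 EGF-response genes left out FOS, FOSL1, EGR1 and EGR2. In it 7 were called higher and 1 lower, against 0.999% and 1.42% over all tested genes. Among them were FJX1 (from 1.19 ± 0.207 to 4.47 ± 0.228 CPM) and MAFF. Of 19 YAP and TEAD targets, TEAD4 and FJX1 rose and AMOTL1, a YAP-binding scaffold, fell (-1.40).

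Of 100 keratins, cadherins and junction genes, 6 were called lower and none higher, against 1.42% and 0.999% over all tested genes. By adjusted p alone 22 were lower and 5 higher, against 8.34% and 11.1%, median -0.17. PCDH7 was at 5.28, 6.33 and 6.09 CPM at 0 h and 2.24, 2.26 and 2.58 CPM at 12 h (-1.32 ± 0.14 (SE) on the log2 scale, edgeR adjusted p = 1.95e-09). CDH6 (-1.59), CDH15 (-0.68), PCDH12 (-0.85), PCDHB3 (-0.63) and the mucin MUC19 (-2.10), which had under 1 CPM in each library, were the others, while E-cadherin (CDH1) changed by -0.10. PCDH12 overlaps RNF14, which had far more counts and a log2 fold change of 0.1. DDC, an amine-synthesis enzyme listed with the neuroendocrine markers, fell (-0.73). Adhesion gene calls that did not hold, with the log2 fold change then, were CDH6 when 12 h replicate 2 was left out (-1.27), PCDH12 when 0 h replicate 1 or 2 or 12 h replicate 1 or 2 was left out (-0.87 to -0.70), PCDHB3 when 0 h replicate 1 or 3 or 12 h replicate 1 or 2 was left out (-0.61 to -0.55) and MUC19 when 0 h replicate 1, 2 or 3 or 12 h replicate 1 or 2 was left out (-2.17 to -1.52).

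**Figure D5:**
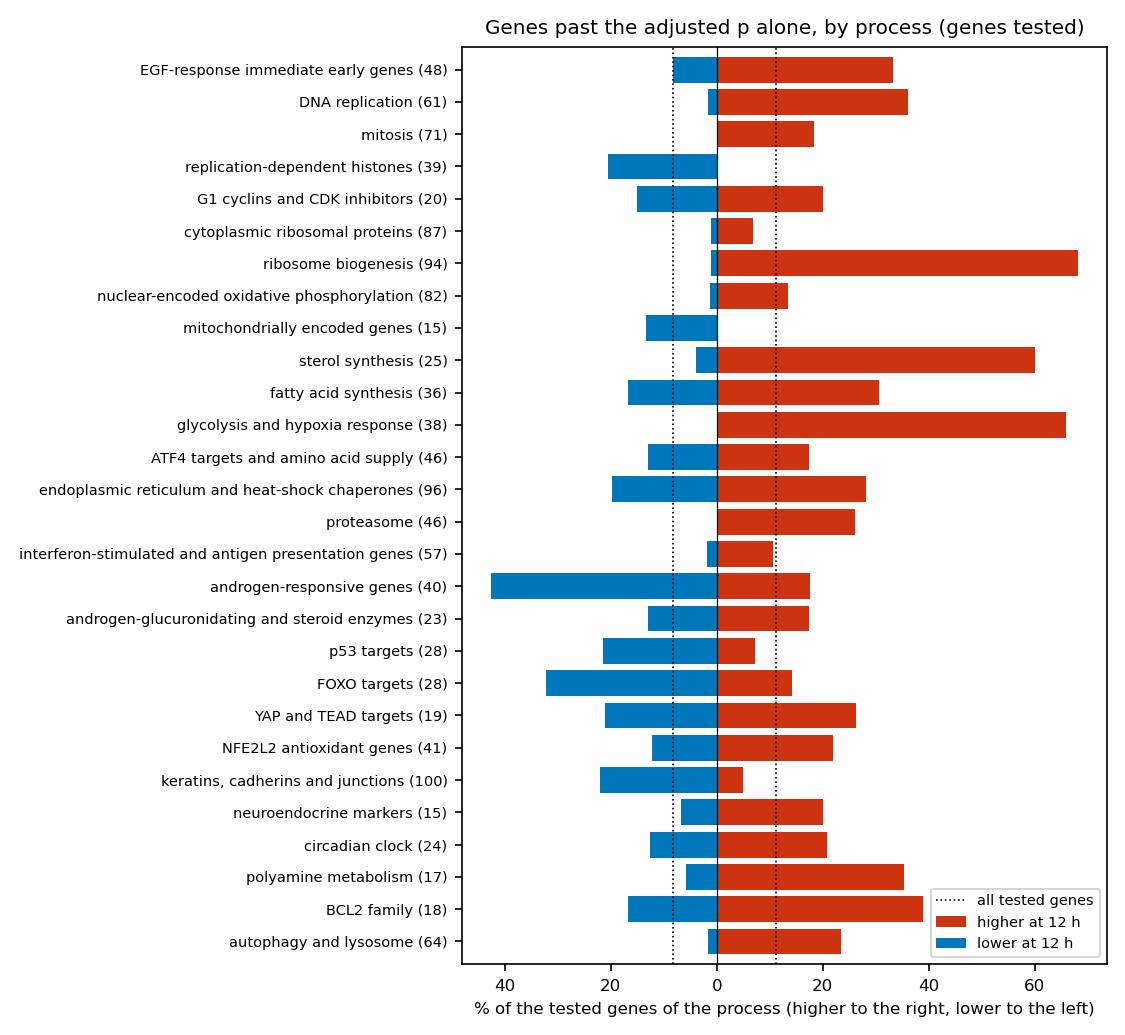
Share of the tested genes of each process that passed the adjusted p alone, in %, with genes higher at 12 h to the right and lower to the left, and the number tested in parentheses. Dotted lines give the share over all tested genes, 11.1% higher and 8.34% lower. Ribosome biogenesis, glycolysis and hypoxia, and sterol synthesis genes extend to the right.

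Genes outside these classes were also among the largest changes. CADPS2, a protein of dense-core vesicle release, had the lowest p (ENSG00000081803.16, chromosome 7, 122318411 to 122886759), at 11.03, 10.8 and 10.99 CPM at 0 h and 60.2, 62.7 and 60.7 CPM at 12 h (2.48 ± 0.04 (SE) on the log2 scale, edgeR adjusted p = 4.66e-31). LIPG, the endothelial lipase, was at 0.856, 0.826 and 0.615 CPM at 0 h and 4.48, 3.34 and 3.45 CPM at 12 h (2.29 ± 0.17 (SE) on the log2 scale, edgeR adjusted p = 8.51e-13). GSDMA, a gasdermin, had 2 counts at 0 h and 101 at 12 h, a ratio of 58.1 with a 95% counting interval of 15.7 to 486. GSDMA was chosen after its values were seen.

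Among the falls, PEG3, an imprinted zinc finger gene (ENSG00000198300.14, chromosome 19, 56810077 to 56840728), was at 989.7, 929 and 969 CPM at 0 h and 365, 353 and 395 CPM at 12 h (-1.38 ± 0.04 (SE) on the log2 scale, edgeR adjusted p = 8.12e-15). DSEL, an epimerase-like gene of dermatan sulfate, was at 177, 175 and 161 CPM at 0 h and 65.5, 61.2 and 63.95 CPM at 12 h (-1.43 ± 0.04 (SE) on the log2 scale, edgeR adjusted p = 2.84e-24). MYBPC1, a myosin-binding protein, fell less (-1.21). The lncRNA genes CTD-2541J13.1 (-1.70), RP3-368A4.6 (-1.29) and RP11-362K14.5 (-1.17) and the pseudogenes OACYLP (-1.34) and RP11-598D12.4 (-1.18) complete the 12 largest falls above 1 CPM. RP11-598D12.4 has a near-identical copy in the abundant gene SLC6A8, so its reads are uncertain. RP3-368A4.6 overlaps FTX on the same strand, which had more counts and was also called lower (-0.66).

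Some falls were neighbours on a chromosome, a pattern chosen after the values were seen. On chromosome 3, all 7 tested genes from TERC to LRRC31 were called lower, from -1.48 for TERC, the telomerase RNA, to -0.77 for LRRC31. MYNN, a zinc finger gene, was at 64.5, 65.2 and 64.8 CPM at 0 h and 37.6, 37.1 and 38.1 CPM at 12 h. ACTRT3 (-0.89), LRRC34 (-1.05), RP11-816J6.3 (-1.14) and RP11-362K14.5 lay between. RP11-362K14.5 overlaps MYNN on the other strand, so their reads cannot be told apart. On chromosome 6, 4 of 8 tested genes from IGF2R to LPAL2 were called lower, IGF2R (-0.64), its antisense AIRN (-1.55), SLC22A3 and LPAL2 (-0.77). IGF2R was at 717, 631 and 611 CPM at 0 h and 428, 361 and 465 CPM at 12 h. AIRN lies within IGF2R, which had far more counts, so the fall of AIRN cannot be told apart from that of IGF2R. Neighbour calls that did not hold, with the log2 fold change then, were IGF2R when 0 h replicate 1 or 12 h replicate 2 was left out (-0.57 to -0.55) and AIRN when 0 h replicate 3 or 12 h replicate 1 or 3 was left out (-1.48 to -1.36). On chromosome 9, RLN1, RLN2 and CD274 (-0.78), which encodes the immune ligand PD-L1, were called, and PLGRKT between them was lower by adjusted p (-0.42).

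Noncoding genes were called lower more often than higher. Of 13595 protein-coding genes 160 were called higher and 142 lower, of 3513 lncRNA genes 24 and 89, and of 1708 genes of other biotypes 4 and 37. Their medians were 0.01, -0.10 and -0.08. At 1 to 10 CPM, 2.74% of protein-coding genes were called higher and 2.74% lower, against 0.865% and 2.99% of lncRNA genes. After all libraries were thinned to 47016302 counts, 21 lncRNA genes were called higher and 74 lower, median -0.10. Without 0 h replicate 1, 59 lncRNA genes were called lower, and without 12 h replicate 2, 9 were called higher. A low-level gene could pass the count filter through the libraries of 1 time. In 862 tested genes all 3 libraries at 0 h reached 10 counts and fewer did at 12 h, against 326 the other way. Of the called genes, 25 lower and 9 higher ones reached 10 counts only at the time of the higher level. Biotypes were not counted without such genes, so whether the filter adds to the excess of falls was not tested.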

How the data were processed

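RNA from LNCaP cells was sequenced as read pairs from mRNA libraries. Per the study's methods, the authors trimmed reads (Cutadapt), mapped them to GRCh38 (STAR) and made gene counts (featureCounts), and the counts were deposited as whole numbers, 1 column per library, without normalization. The strand setting and the treatment of reads that map to several places are not given in the sources used here, so reads of overlapping genes cannot be told apart. Of 198 genes checked for this text, 48 overlap another gene with over 10% of their counts, and not all are pointed out above. Among the others are RUNX2 with SUPT3H, PTPN21 with SPATA7, UTP23 with EIF3H and RAD21, and NRG4 with FBXO22. The methods state that 1 LNCaP replicate at time 0 was left out, without naming its treatment. A further 14 empty columns were not used.

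Groups and replicate numbers came from the sample titles. Counts of 48760003 to 60985825 per library were scaled by TMM and tested with edgeR 4.0.16 in R 4.3.3 (robust quasi-likelihood fit of all 9 libraries in 3 groups, Benjamini-Hochberg adjustment over the tested genes). Values per gene are CPM on the scaled library sizes. Confidence and counting intervals are at 95%, and those of counts cover counting error only, as reads carried no molecular identifiers. DESeq2 1.42.0, other scalings, filters, thresholds, a replicate block, thinning and leaving out each library were run as alternatives. The fit was tested on simulated counts with known changes.

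Classes were written from general knowledge as patterns of gene symbols, and 2 patterns were corrected after a first run because they took in genes of another kind. The members, lists and naming rules were chosen with earlier results of these data known, so no list is independent support, and no set was tested. Genes named are the 12 largest rises and falls above 1 CPM without overlap of the groups, the 6 largest rises and falls of each functional group above 0.5 CPM, all called members of classes with at most 5, the ERBB receptors and EGF-family ligands, and the 3 largest called rises and falls of each process with at least 3 called. Other genes were chosen after their values were seen, and a few genes that these rules name are not reported here. Motifs were sought in RefSeq promoters matched by symbol, and neighbours were called genes of 1 direction at most 250000 bases apart, 3 or more together. Near-identical copies were sought between longest transcripts (at least 95% identity over 150 bases).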

Additional observations from a re-analysis of the deposited data

How the results depend on the processing

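The 456 calls (188 higher, 268 lower) stayed within 1.5 times under other tests, scalings, filters and sets of libraries. DESeq2 gave 409, of which 401 were shared, with 2190 genes given no adjusted p. Leaving out 1 library gave 353 to 441 calls, 166 to 193 higher and 186 to 268 lower. Thresholds moved the count: 3661 (2092 higher, 1569 lower) with no fold threshold, 182 (83 and 99) at a fold of at least 2, and 82 (61 and 21) when the fold was tested against 1.5 with glmTreat. With the replicate number as a block, 445 genes were called (184 higher, 261 lower), 431 of them shared, and A2M, ATP4B, LRP1, RSPO4 and RUNX1 had adjusted p of 0.0525, 0.0541, 0.055, 0.0566 and 0.0617. The numbers did not pair the samples: the deviations of same-numbered libraries correlated at 0.0078, 0.0284 and -0.0103.

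None of 154 called genes followed one by one changed direction in any of 18 alternatives, but such a reversal was hardly possible. Alternatives with another fold threshold used the same fit. The groups also did not overlap in 182 of the 188 higher and 259 of the 268 lower genes. Of the 154 genes, 50 lost the call when 1 library was left out, most of them low-level genes or genes near 1.5-fold. Without 1 library, lncRNA genes called lower went down to 59 (without 0 h replicate 1) and those called higher to 9 (without 12 h replicate 2), and transcription factors called lower to 6 and receptors called lower to 2 (both without 12 h replicate 1). Of genes not called, BTC ranged from -0.25 to 0.62 and EGF from -0.089 to 0.033 without 1 library, so their direction is not settled. Changes in genes under about 1 CPM were measured least precisely.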

Other observations

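A few genes that were higher at 12 h were back near their 0 h level in the 24 h libraries. GSDMA was at 0.63, 0.569 and 0.764 CPM at 12 h and 0.0426, 0.0737 and 0.0962 CPM at 24 h. TGFB1 was at 0.611, 0.512 and 0.578 CPM at 12 h and 0.341, 0.276 and 0.0769 CPM at 24 h, and SCN4B at 1.24, 0.967 and 1.57 CPM and then 0.639, 0.571 and 0.577 CPM. The 24 h libraries lay wholly below the 12 h libraries in each of these 3 genes. They were chosen after their values were seen, are all under 2 CPM, and the difference between 12 h and 24 h was not tested here.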
